A study of Mus musculus with 13 samples.

Results

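The cells described here are the cycling microglia of mouse spinal cord: cells that the deposited cell table annotates as microglia and places in cluster 2. The rule selected 253 cells out of 17670 annotated microglia and 22148 cells in all. Cluster 2 also held 5 cells with another annotation, which were left out. The cells were compared with the non-cycling microglia of clusters 1, 3, 4 and 9 from the same libraries. All 13 libraries together, including those with no cluster 2 cell, held 17328 non-cycling microglia.

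The study sorted live myeloid cells from the spinal cord of healthy controls and of mice with experimental autoimmune encephalomyelitis (EAE), a model of multiple sclerosis, either at peak disease or in its chronic phase. All 13 libraries, controls included, came from the fate-mapping genotype Cx3cr1YFPCreERT2:R26tdTomato, in which an inducible Cre is driven from the Cx3cr1 locus and tdTomato marks cells in which Cre was active. The labels separate resident from infiltrating myeloid cells. They list 3 control, 2 peak and 3 chronic resident libraries, and 2 peak and 3 chronic infiltrating libraries, as biological replicates. The letters a, b and c below only name libraries. The age of the mice, the agent used to induce EAE and the timing of Cre induction are not given in the sources used here.

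Microglia are the resident macrophages of the central nervous system and renew themselves by local division. A dividing cell licenses its replication origins with the Mcm helicase, copies its DNA in S phase, and then assembles chromosomes, kinetochores and a spindle in G2 and mitosis. Much of this programme is switched on by transcription: E2F factors act on genes of DNA replication, and the MuvB complex with B-Myb and FoxM1 acts on genes of mitosis through a promoter element called CHR, often beside CCAAT boxes bound by NF-Y.

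Promoters of 5 genes are printed as examples that carry these elements, chosen after the matches were seen. The sequences are RefSeq sequences of build GRCm38.p6, the 130 bases before the annotated start of each gene, 5′ to 3′ on the gene's strand. Capitals mark matches on either strand to the CHR motif TTTGAA. They also mark the NF-Y motif, which is CCAAT. The last motif marked is that of E2F, TTTNNCGC. A match on the opposite strand appears as the reverse complement.
Top2a, chr11:99024190-99024319, minus strand: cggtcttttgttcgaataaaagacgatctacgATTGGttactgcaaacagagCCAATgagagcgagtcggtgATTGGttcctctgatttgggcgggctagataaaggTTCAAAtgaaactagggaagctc
Mki67, chr7:135716380-135716509, minus strand: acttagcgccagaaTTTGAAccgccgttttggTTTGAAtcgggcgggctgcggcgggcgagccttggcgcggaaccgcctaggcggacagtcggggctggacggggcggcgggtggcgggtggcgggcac
Ube2c, chr2:164769799-164769928, plus strand: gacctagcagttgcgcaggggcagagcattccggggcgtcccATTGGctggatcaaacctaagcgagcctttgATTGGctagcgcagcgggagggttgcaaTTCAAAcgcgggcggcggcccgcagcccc
Cdc20, chr4:118437344-118437473, minus strand: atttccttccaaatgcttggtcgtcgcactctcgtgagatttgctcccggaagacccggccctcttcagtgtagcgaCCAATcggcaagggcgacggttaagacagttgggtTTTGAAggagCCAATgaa
Mcm6, chr1:128359706-128359835, minus strand: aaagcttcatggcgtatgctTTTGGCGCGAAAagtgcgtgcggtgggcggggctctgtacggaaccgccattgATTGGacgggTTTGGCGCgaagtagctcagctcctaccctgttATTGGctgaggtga

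The Top2a match to the CHR element began 23 bases before the start, that of Ube2c 29 bases and that of Cdc20 18 bases, while both matches of Mki67 lay at 98 and 116 bases. Mcm6, a subunit of the replicative helicase, had no CHR match in this stretch. It had E2F matches at 110, 106 and 47 bases, the first 2 of which overlap on opposite strands. Of the other named genes searched over the same stretch, Ccnb2, Cenpf, Pclaf, Mcm5, Pcna and Rrm2 had matches to CCAAT only, and Birc5 had none. The same letters were searched in the 250 bases before every RefSeq gene start. A CHR match was found in 20 of the 47 genes of the G2 and mitosis list that had a promoter entry (42.6%), in 6 of 31 genes of the S phase list (19.4%), in 18.3% of all 27025 genes and in 12.9% of the 7446 genes compared below that had an entry. An E2F match was found in 10 of the 31 S phase genes (32.3%), in 5 of the 47 G2 and mitosis genes (10.6%), in 4.94% of all genes and in 9.15% of those compared. The role lists did not all have these shares: 4 of 28 kinetochore genes (14.3%) had a CHR match and 2 of 23 DNA synthesis genes (8.70%) an E2F match. CCAAT was found in 36 of 47 and 22 of 31 genes of those lists, in 37.5% of all genes and in 40.9% of those compared. A match says only that the letters are present.

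Resident libraries held 4654613 to 18846457 unique molecular identifiers (UMIs) each. The median cluster 2 cell had 3110.5 to 10068 UMIs, and the median non-cycling cell of the same library 2451 to 8512. Cluster 2 cells were the deeper ones in 9 of 9 libraries, by 1.04 to 2.05 times. No cell was marked as a doublet in the cell table, no doublet caller was run, and 52 cell barcodes were held by more than 1 cell of the table, 3 of them with a cluster 2 cell. Libraries that share a code in the table's column headed SLX are called a pool here: control b was in a pool with both peak resident libraries, control c with chronic c, control a with neither, and chronic a and b had a pool without controls. No pool held both peak and chronic resident libraries, so in fits without controls pool and stage cannot be told apart. In fits with controls, only control b and control c share a pool with resident EAE libraries. With pool as a term, chronic against control therefore rests on chronic c against control c, since chronic a and b have no control in their pool. Peak against control rests on both peak libraries against control b, and chronic against peak joins these differences. The labels do not say whether animals were pooled, so p-values measure the spread between these libraries. The interaction fit below is an exception: its spread was shared across genes. A gene's own spread between libraries hardly enters its SE or p-value there.

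The marker genes fitted the label. Of 253 cells, 1 had no UMI of Top2a, Mki67, Birc5, Ube2c or Stmn1. The cells also carried a microglial gene: Csf1r, the receptor for the microglial survival factor Csf1, stood at 847 to 1319 CPM (counts scaled to a library size adjusted by the TMM method) in the 6 libraries with at least 10 cluster 2 cells. Over all 253 cells the 16 homeostatic microglial genes summed to 46464 UMIs, and lists of other cell types to far less. Of 9 T cell genes in the matrix 6 were at 0 and the rest summed to 3 UMIs, and NK cell genes summed to 2 UMIs. Ccr2, Hp and F13a1, genes of blood monocytes, were at 0, as were Lyve1, Cd163, Pf4 and Cbr2 of border macrophages and Flt3, Xcr1 and Ccr7 of dendritic cells. Those 3 lists summed to 496, 136 and 361 UMIs, and the neutrophil, oligodendrocyte and astrocyte lists to 203, 196 and 164 UMIs. The 12 monocyte genes together were at 0 in control cluster 2 cells and at 137 to 614 CPM in those of the resident EAE libraries. In non-cycling microglia they stood at 9.02 to 17.5 CPM in controls and 105 to 287 CPM in EAE. Their part in the differences between groups below was not tested.

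Cycling microglia were rare in healthy cord, made up over 7% of microglia in both peak libraries, and differed widely between chronic libraries. They were 5 of 1769 microglia in control a (0.283%, exact Clopper-Pearson 95% interval 0.0918 to 0.658), 7 of 1149 in control b (0.609%, 0.245 to 1.25) and 9 of 3237 in control c (0.278%, 0.127 to 0.527). At peak they were 35 of 486 in library a (7.20%, 5.07 to 9.87) and 57 of 704 in library b (8.10%, 6.19 to 10.4). In the chronic phase they were 64 of 1966 in library a (3.26%, 2.52 to 4.14), 41 of 2046 in library b (2.00%, 1.44 to 2.71) and 12 of 4293 in library c (0.280%, 0.145 to 0.488).

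The mean share was 0.390% ± 0.190 (SD, n = 3) in controls, 7.65% ± 0.633 (n = 2) at peak and 1.85% ± 1.49 (n = 3) in the chronic phase. Both peak libraries lay above all others, and chronic c lay within the range of the controls. The intervals cover counting error only, and the shares are a description, since the clusters were made from genes that also differ between the groups. Within the pool that held control b, the 2 peak libraries stood at 7.20% and 8.10% against 0.609%. Within the pool of control c and chronic c the shares were 0.278% and 0.280%. Among the infiltrating libraries, chronic b held 1915 annotated microglia, 23 of them in cluster 2 (1.20%, 0.763 to 1.80), and the other 4 libraries held 2 to 74 microglia and no cluster 2 cell. For the 74 microglia of chronic infiltrating c, a count of 0 allows a share of up to 4.05% when 3 cells are taken as the limit (4.86% by the exact interval).

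**Figure D1:**
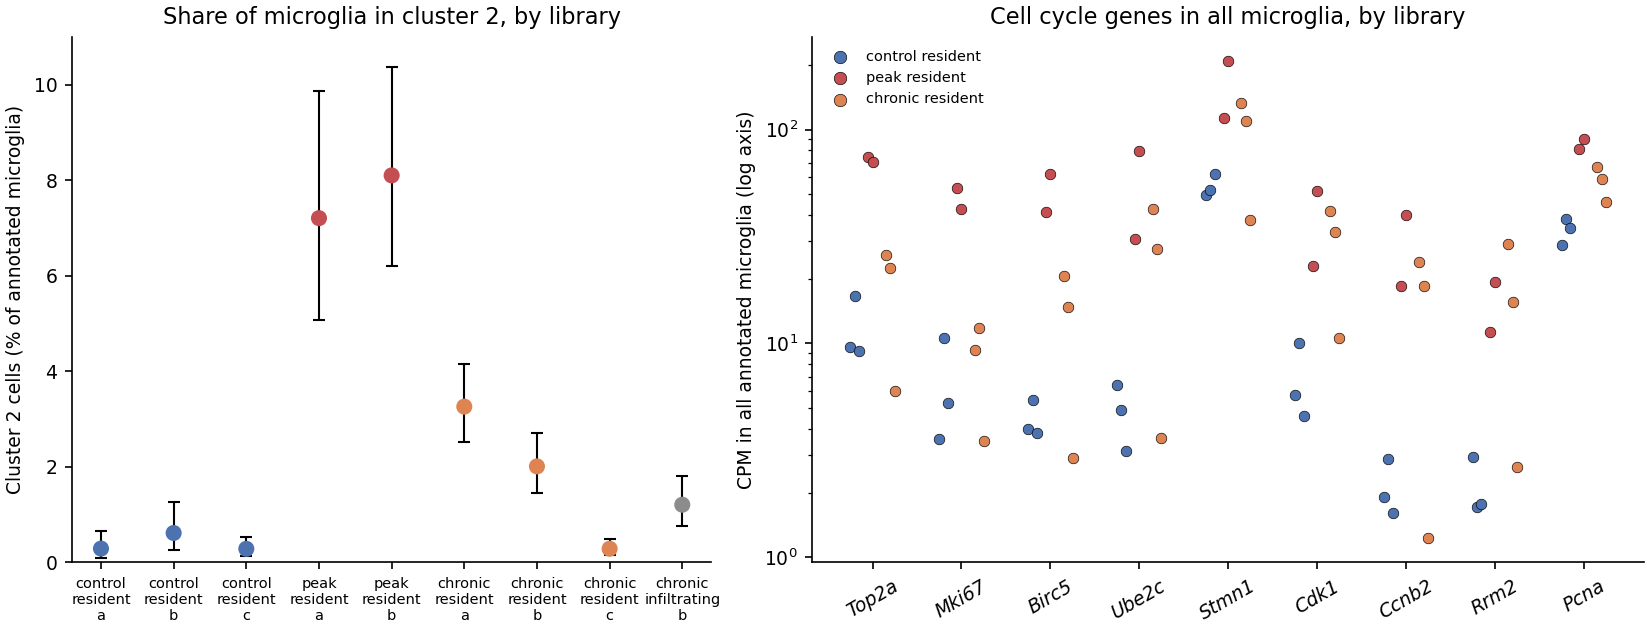
Left, share of annotated microglia in cluster 2 in each library with cluster 2 cells (percent; points, value of a library; bars, exact 95% interval for counting error). Right, CPM of 9 cell cycle genes in all annotated microglia of each resident library on a log axis; both peak libraries lie above the controls for each of these genes, while chronic c lies near the controls for most.

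A measure that did not use the clusters gave the peak libraries the highest values as well. Each microglial cell was thinned at random to 2000 UMIs, shallower cells were left out (12 to 620 per resident library), and cells with at least 3 UMIs of the G2 and mitosis list were counted. Such cells were 17.1%, 19.3% and 17.4% of microglia in controls a, b and c, 27.2% and 26.8% in peak a and b, and 18.1%, 13.8% and 13.5% in chronic a, b and c. The peak libraries were again above all others, and 2 of 3 chronic libraries were below all controls. Without thinning the shares were 46.9%, 62.7% and 37.8%, 82.3% and 78.3%, and 36.5%, 25.3% and 39.5%, which follow the depth of the cells.

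The difference of means in the thinned share was 9.09 percentage points for peak against control (exact two-sided permutation test over libraries, p = 0.2, adjusted 0.3), −11.9 for chronic against peak (p = 0.2, adjusted 0.3) and −2.79 for chronic against control (p = 0.3, adjusted 0.3). With a threshold of 5 UMIs in place of 3, the last difference was 1.19. With 3 against 2 libraries the smallest p possible is 0.2, and with 3 against 3 it is 0.1. Over all 13 libraries, the thinned share was 99.1% of cluster 2 cells (219 of 221) and 15.6% of non-cycling microglia (median depth 3310 UMIs). Macrophages of these libraries, infiltrating ones included, stood at 18.5% (median depth 10730 UMIs) and T cells, which divide in EAE, at 63.4%. Outside cluster 2 the share was 16.9%, 18.8% and 17.1% in controls, 21.4% and 20.3% at peak, and 15.6%, 12.03% and 13.3% in the chronic phase. Mki67 UMIs were found in 6.65% and 5.56% of non-cycling cells at peak, which are the deepest, in 0.0314% to 0.177% of those of controls and in 0.304% to 0.948% of those of the chronic resident libraries.

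Genes of every stage from replication to cell division were higher in cluster 2 than in non-cycling microglia of the same libraries. Over the 6 libraries with at least 10 cluster 2 cells, 475 of 9188 genes (5.17%) were at least 2-fold higher in the fit and higher in every library, and 305 (3.32%) were lower by the same rule. The median log2 difference over all genes was −0.12. The cluster was made from these genes, so the values below describe it and carry no test. Among the lists, 47 of 49 G2 and mitosis genes (median log2 difference 5.16) and 32 of 39 S phase genes (2.18) were higher and none lower.

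Cyclins and their kinases split by stage. Cdk1, the mitotic kinase, stood in cluster 2 at 131 and 313 CPM in peak a and b, 352, 409 and 255 CPM in chronic a, b and c, and 331 CPM in chronic infiltrating b. In the non-cycling cells of the same 6 libraries it stood at 8.72 to 21.3 CPM, so the 2 sets of values did not overlap (log2 difference 4.23). Ccnb2, encoding a cyclin partner of that kinase, stood at 134 to 324 CPM in cluster 2 against 0.391 to 15.2 CPM (4.79), and Ccna2 at 80.7 to 164 CPM against 0.279 to 3.14 CPM (6.28). Ccnd1, the growth factor-induced cyclin of G1, was not higher: it stood at 14.7 to 141 CPM in cluster 2 and 58.1 to 163 CPM in non-cycling microglia (−0.45), with overlapping ranges. Cdk6, a partner of that cyclin, also overlapped (−0.20). In all 11 of 16 cyclin and kinase genes were higher.

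Of the licensing genes 14 of 16 were higher, with smaller differences than the mitotic genes. Mcm6 stood at 87.6 to 122 CPM against 10.5 to 34.3 CPM in non-cycling cells (2.07), and Mcm5, another helicase subunit, at 29.4 to 55.6 against 2.52 to 13.9 CPM (2.50). Of the DNA synthesis genes 24 of 27 were higher. Rrm2, the S phase subunit of ribonucleotide reductase, which makes deoxynucleotides, stood at 93.3 and 163 CPM at peak, 423, 338 and 276 CPM in the chronic libraries and 250 CPM in chronic infiltrating b, against 1.01 to 6.44 CPM (6.43). Pcna, the sliding clamp of DNA polymerase, stood at 95.7 to 257 CPM but was also present in non-cycling cells at 42.7 to 67.2 CPM (1.94). Pclaf, a Pcna-binding factor, stood at 275 to 667 against 3.13 to 13.6 CPM (5.72).

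Chromatin genes of dividing cells followed, with 22 of 24 higher. H1f5, a linker histone gene, was the highest of the named genes by difference: 164 and 288 CPM at peak, 273, 419 and 684 CPM in chronic a, b and c, and 390 CPM in chronic infiltrating b, against 2.43 to 4.79 CPM (6.93). Hist1h2ap (621 to 1203 CPM, 5.31) and H2ac8 (217 to 592 CPM, 5.12) encode replication-dependent histones, whose near-identical copies make the assignment of reads uncertain. Top2a, the topoisomerase that untangles replicated DNA, stood at 638 and 551 CPM at peak, 318, 475 and 633 CPM in the chronic libraries and 420 CPM in chronic infiltrating b, against 2.24 to 18.5 CPM (6.00). Condensin and cohesin genes, which shape and hold chromosomes, were higher in 13 of 14 cases.

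All 29 kinetochore and checkpoint genes compared were higher. Cenpf, a kinetochore protein of G2 and mitosis, stood at 205 to 405 CPM against 2.07 to 5.94 CPM (6.15). All 4 genes of the chromosomal passenger complex were higher (median 5.25). That complex corrects faulty attachments of chromosomes to the spindle. Its member Birc5 (survivin) stood at 258 to 474 CPM against 1.29 to 13.3 CPM (5.77), and Cdca8 (borealin) at 205 to 280 against 2.18 to 10.2 CPM (5.52). Mki67, which coats mitotic chromosomes and is the gene of the Ki-67 antigen, stood at 467 and 304 CPM at peak, 123, 207 and 398 CPM in chronic a, b and c, and 236 CPM in chronic infiltrating b, against 1.17 to 11.9 CPM (5.81). In spindle and cytokinesis genes 27 of 28 were higher (median 5.41).

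The anaphase-promoting complex, the ligase that ends mitosis, was higher only in part: 5 of 20 genes. Ube2c, its ubiquitin-conjugating enzyme, stood at 280 to 610 CPM against 0.95 to 17.0 CPM (5.89). Stmn1, a microtubule-destabilising protein, stood at 741 to 1515 CPM, with 28.6 to 85.5 CPM in non-cycling cells (4.51), and 7 of 11 tubulin and stathmin genes were higher. Of the E2F and DREAM factors 6 of 17 were higher, Foxm1 among them (14.7 to 68.1 CPM against 0 to 2.19 CPM). CDK inhibitors were higher in 4 of 6 cases. Cdkn2c, an inhibitor of the G1 kinases, stood at 68.1 to 199 against 5.60 to 16.1 CPM (3.52). Growth and nucleolar genes differed little, with 2 of 20 higher, and Npm1 stood at 258 to 769 CPM in cluster 2 and 340 to 770 CPM in non-cycling cells (−0.03).

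**Figure D2:**
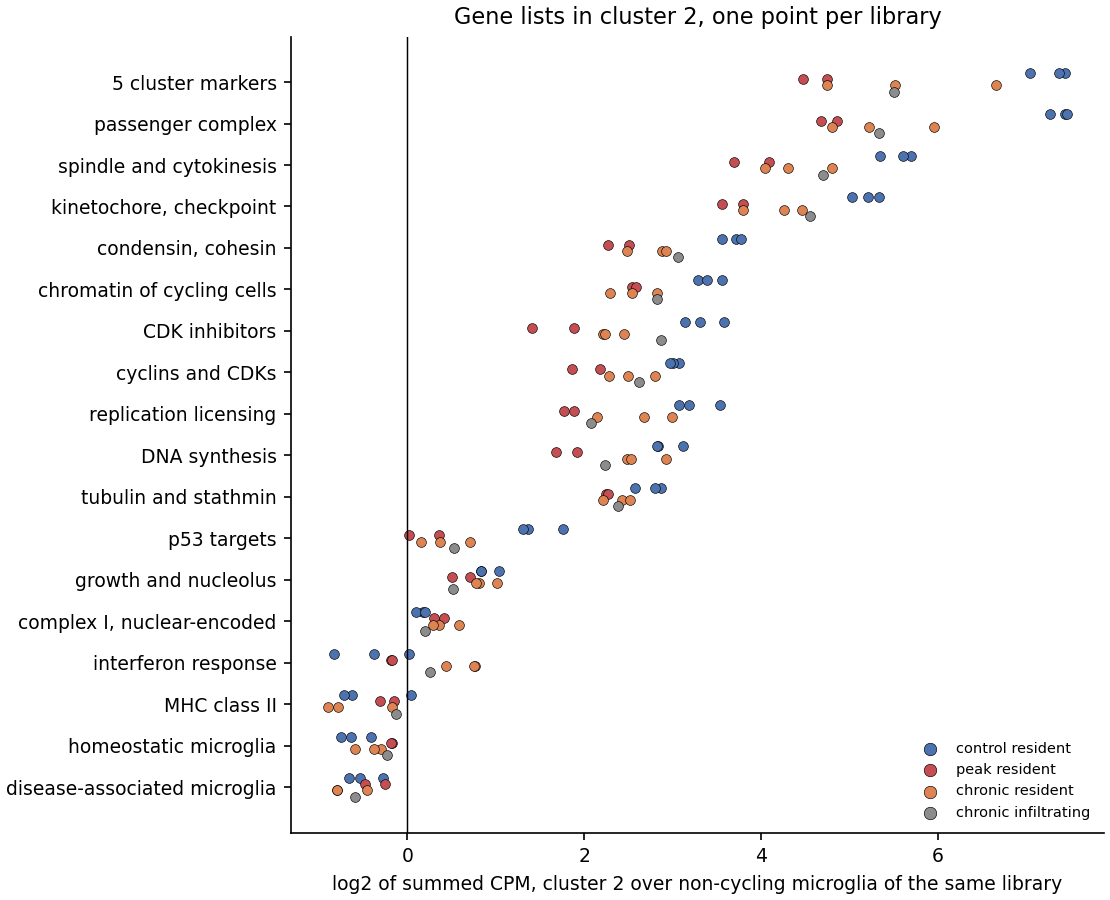
Log2 ratio of the summed CPM of each gene list in cluster 2 over non-cycling microglia, one point per library and colour per group; control libraries rest on 5, 7 and 9 cluster 2 cells. Cell division lists lie to the right of 0 in every library, while the disease-associated list lies to the left of 0 in all 9, at −0.25 to −0.80.

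Each cluster 2 cell held more transcripts of the S and G2M lists than the usual non-cycling cell. The median cluster 2 cell had 116 of these UMIs per 10000 (lowest 31.0, highest 409), and the median non-cycling cell 10.6 (99th percentile 52.0). The boundary was not sharp: 518 of 17328 non-cycling cells reached the lowest cluster 2 cell, and 20 reached the cluster 2 median. Control cells had the highest values, with library medians of 318, 289 and 294 UMIs per 10000. The medians were 117 and 119 at peak, 98.6, 108 and 155 in chronic a, b and c, and 119 in chronic infiltrating b. The 3 control medians, on 5, 7 and 9 cells, lay above those of all other libraries.

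Transcripts of G2 and mitosis outweighed those of S phase. Summed over cluster 2, the ratio of G2M to S list UMIs was 4.31, 3.44 and 3.102 in controls a, b and c, 3.25 and 3.82 at peak, 2.54, 2.76 and 2.30 in the chronic libraries, and 3.88 in chronic infiltrating b. The 3 chronic resident libraries lay below the rest. The difference of means was −1.003 for chronic against peak and −1.09 for chronic against control, the latter with libraries of 5 cells or more. Per cell, 35 of 253 (13.8%) held more S than G2M list UMIs. These genes made the cluster, and the count rests on list lengths, so the ratios are a description, with no test, and the count is no call of phase.

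**Figure D3:**
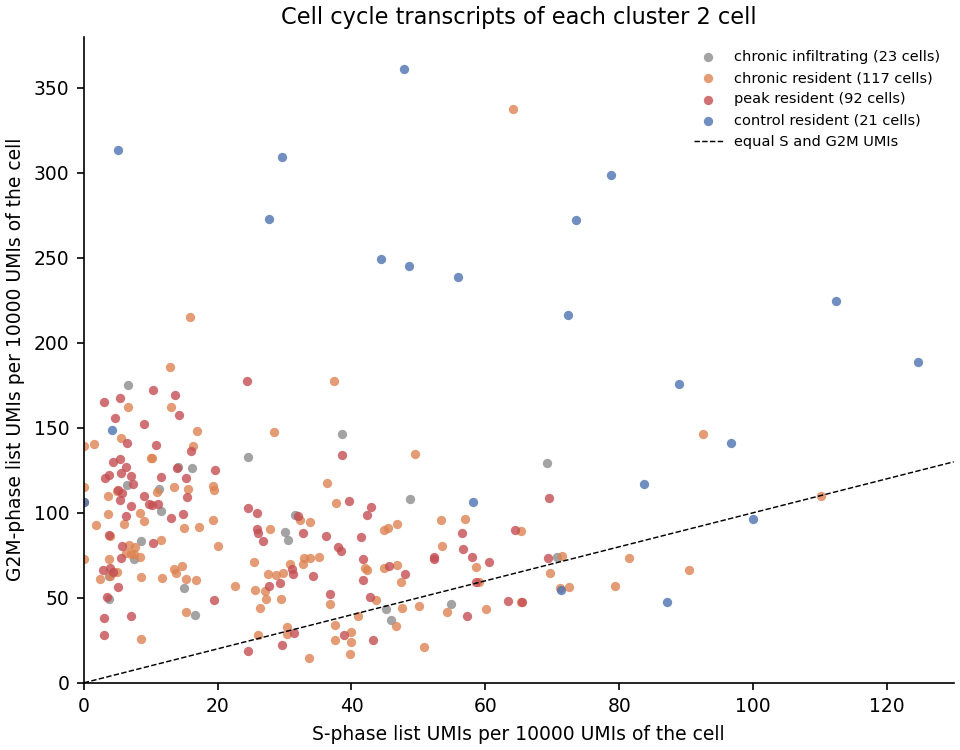
S phase list UMIs (x axis) against G2M list UMIs (y axis) of each cluster 2 cell, both per 10000 UMIs of the cell; the dashed line marks equal values. Control cells (21) reach the highest values, and 35 of the 253 cells lie below the line.

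The genes that were lower in cluster 2 included surface receptors and membrane proteins of microglia. Gpnmb, a glycoprotein of lipid-laden phagocytes, stood at 7.57 and 1.79 CPM at peak, 82.0, 222 and 10.2 CPM in chronic a, b and c, and 51.5 CPM in chronic infiltrating b. Non-cycling cells of the same libraries held 9.49 and 46.8 CPM, then 476, 530 and 183 CPM, and 479 CPM, so each cluster 2 value was below its own library's value (log2 difference −2.22). Cd22, an inhibitory receptor for sialic acids, stood at 0 to 36.8 against 22.3 to 63.0 CPM (−1.67). Pirb, an inhibitory receptor for MHC class I, stood at 2.52 to 36.8 against 39.4 to 58.6 CPM (−1.88). The largest difference was that of Neurl3, a ubiquitin ligase gene (0 to 14.7 against 26.9 to 55.7 CPM, −2.48). The other named genes of this kind, Klc4, Avl9, Klhl24, Csad, Fgd4 and Pnpla7, differed by −1.61 to −2.18. These values rest on low counts. In the 6 libraries Neurl3 had 0 to 4 UMIs in cluster 2, Pirb 1 to 6 and Cd22 0 to 7. Pnpla7 had 1 to 22 UMIs and Gpnmb 1 to 44. In chronic a and b, 1 cell held 62.5% and 52.3% of the Gpnmb UMIs.

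In all annotated microglia summed by library, cell cycle genes were higher at peak than in controls. This comparison used no cluster, though in a sum more dividing cells and more RNA per dividing cell cannot be told apart. Of the S and G2M lists, 73 of 96 genes rose and 1 fell (edgeR quasi-likelihood F test, adjusted p under 0.05), with a median log2 change of 2.06 against −0.01 over all genes. Among all 11078 genes tested, 16.0% rose and 14.1% fell. In the same comparison 10 of 18 genes that tissue dissociation can induce rose and none fell (median 0.96), and 11 of 13 mitochondrially encoded genes rose. Their part in the result was not tested. Without peak b, 46 of the list's genes rose. With library size as the only scaling, the median of all genes was −0.33 (29.1% of calls higher, against 53.2%) and 62 of the list's genes rose.

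Mki67 stood at 3.59, 10.6 and 5.26 CPM in controls a, b and c and at 53.2 and 42.6 CPM in peak a and b (log2 change 2.90 ± 0.45 SE, edgeR adjusted p = 0.000402). The groups did not overlap. Top2a stood at 9.61, 16.7 and 9.25 CPM in controls and 74.7 and 70.7 CPM at peak (2.63 ± 0.45, adjusted p = 0.000828). Birc5 rose by 3.56 ± 0.55 (adjusted p = 0.000411), and Ube2c by 3.55 ± 0.71 (adjusted p = 0.00243). For Ube2c the adjusted p was 0.051 without peak b. Stmn1 rose by 1.56 ± 0.41 (adjusted p = 0.0111), a call that was lost without peak b (1.04, adjusted p = 0.17).

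The roles differed in how many members rose at peak: 12 of 18 cyclins and kinases, 12 of 19 licensing genes, 16 of 27 DNA synthesis genes, 18 of 26 chromatin genes, 22 of 29 kinetochore genes, 4 of 4 passenger genes, 7 of 14 condensin and cohesin genes and 25 of 30 spindle genes. Of the 8 CDK inhibitors 3 rose and 2 fell. Cdkn1a (p21), the inhibitor induced by p53, stood at 41.7, 84.5 and 36.6 CPM in controls and 136 and 105 CPM at peak (1.15 ± 0.35, adjusted p = 0.0244). Cdkn1b (p27), an inhibitor of resting cells, fell from 62.0, 64.2 and 74.5 CPM to 36.6 and 34.5 CPM (−0.91 ± 0.28, adjusted p = 0.0257).

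Most of the UMIs of the sharpest markers lay in cluster 2 cells, although these are a small part of the microglia. Over the 8 resident libraries, cluster 2 held 65.0% to 96.8% of microglial Mki67 UMIs, 60.8% to 94.0% of Top2a UMIs and 54% to 97.4% of Birc5 UMIs. Its part was 2.65% to 29.0% for Pcna and 19.7% to 59.4% for Stmn1. The cluster was made from such genes, so these parts are a description. Without peak a or b, the lone peak library is assumed to vary like the other groups.

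In chronic EAE fewer of these genes rose, and the result rested on the libraries. Compared with controls, 24 of 96 genes of the S and G2M lists rose and 2 fell (median log2 change 0.59, −0.06 over all genes; 15.0% of all genes rose and 13.4% fell). Without chronic c 54 rose. Without chronic a or b the count was 10 or 11, and without control a, b or c it was 14, 14 or 11. With pool as a term, which sets chronic c alone against control c, 1 rose. With library size as the only scaling 12 rose and 9 fell, the median of all genes then being −0.51 (17.3% of calls higher, against 52.9%).

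Cdk1 rose from 5.77, 10.1 and 4.58 CPM in controls to 41.5, 33.3 and 10.6 CPM in chronic a, b and c (2.06 ± 0.47, adjusted p = 0.00648), and Rrm2 from 2.95, 1.72 and 1.78 CPM to 29.1, 15.7 and 2.63 CPM (2.82 ± 0.66, adjusted p = 0.00732). Rrm2 of chronic c lay within the control range. Mki67 stood at 9.29, 11.8 and 3.51 CPM, overlapping the controls (0.27 ± 0.44, adjusted p = 0.66; −0.22 with library size as the only scaling), and Top2a at 25.9, 22.6 and 5.96 CPM (0.58 ± 0.42, adjusted p = 0.313). Ube2c passed the test at 42.7, 27.7 and 3.62 CPM (2.33 ± 0.67, adjusted p = 0.0205), but not without chronic a, control b or control c (adjusted p 0.068 to 0.086). The control libraries are shared by this and the peak comparison.

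Between the stages, 38 of 96 genes were lower in the chronic phase than at peak and 1 was higher (median −1.22, 0.00 over all genes; 11.9% of all genes were lower and 9.78% higher). Mki67 fell by 2.63 ± 0.45 on the log2 scale (adjusted p = 0.00255), and Hmgb2, a chromatin protein of dividing cells, by 1.94 ± 0.24 (adjusted p = 0.000408). Rrm2 did not pass the test (−0.02 ± 0.64, adjusted p = 0.982). The count of lower genes was 10 without peak a, 17 without peak b and 7 with pool as a term.

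The levels of microglial state genes in cluster 2 differed between stages in the same order as in non-cycling microglia for the homeostatic list. Homeostatic genes, the surface receptors of resting microglia, summed to 69015, 61653 and 68749 CPM in cluster 2 of controls a, b and c, to 15973 and 15967 CPM at peak and to 24712, 31506 and 40399 CPM in chronic a, b and c. Non-cycling cells held 115740, 82119 and 106910 CPM in controls, 18040 and 18193 CPM at peak and 37355, 38806 and 52240 CPM in the chronic phase. Both classes were lowest at peak, and cluster 2 lay below the non-cycling cells in 9 of 9 libraries.

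Disease-associated genes, a set of lipid, lysosome and phagocytosis genes induced in many lesions, summed to 14520, 13980 and 15139 CPM in control cluster 2 cells. They summed to 38157 and 29657 CPM at peak and to 41563, 51085 and 44008 CPM in the chronic phase, all above the controls. Non-cycling cells held 45358 and 41430 CPM at peak and 69882 to 76044 CPM in the chronic phase, above cluster 2 in every library. By gene, 3 of 21 were lower in cluster 2 by the 2-fold rule, Gpnmb, Apoe and Fabp5, and none was higher. Complex I subunits, the entry point of the respiratory chain, showed none of 36 past a fold of 2, with a median log2 difference of 0.29.

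The ratio of the classes had opposite signs at peak and in the chronic phase for interferon-induced genes. They summed in cluster 2 to 665, 814 and 695 CPM in controls, 6867 and 5977 CPM at peak and 5983, 3527 and 2301 CPM in the chronic phase. Non-cycling cells held 864, 1445 and 685 CPM, 7801 and 6749 CPM, and 3529, 2609 and 1360 CPM. Cluster 2 was thus below its library's non-cycling cells in both peak libraries and above them in all 3 chronic resident libraries and in chronic infiltrating b (3101 against 2603 CPM). The non-cycling pool itself differed in make-up: clusters 3 and 4 were 74.3% and 24.4% of it in peak a, and 22.6% and 56.9% in chronic a. Cluster 3 of the chronic libraries, at 6942, 3886 and 4669 CPM, was above cluster 2 for these genes, and cluster 4, at 2599, 2107 and 957 CPM, below. The part of this make-up in the sign change was not tested.

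**Figure D4:**
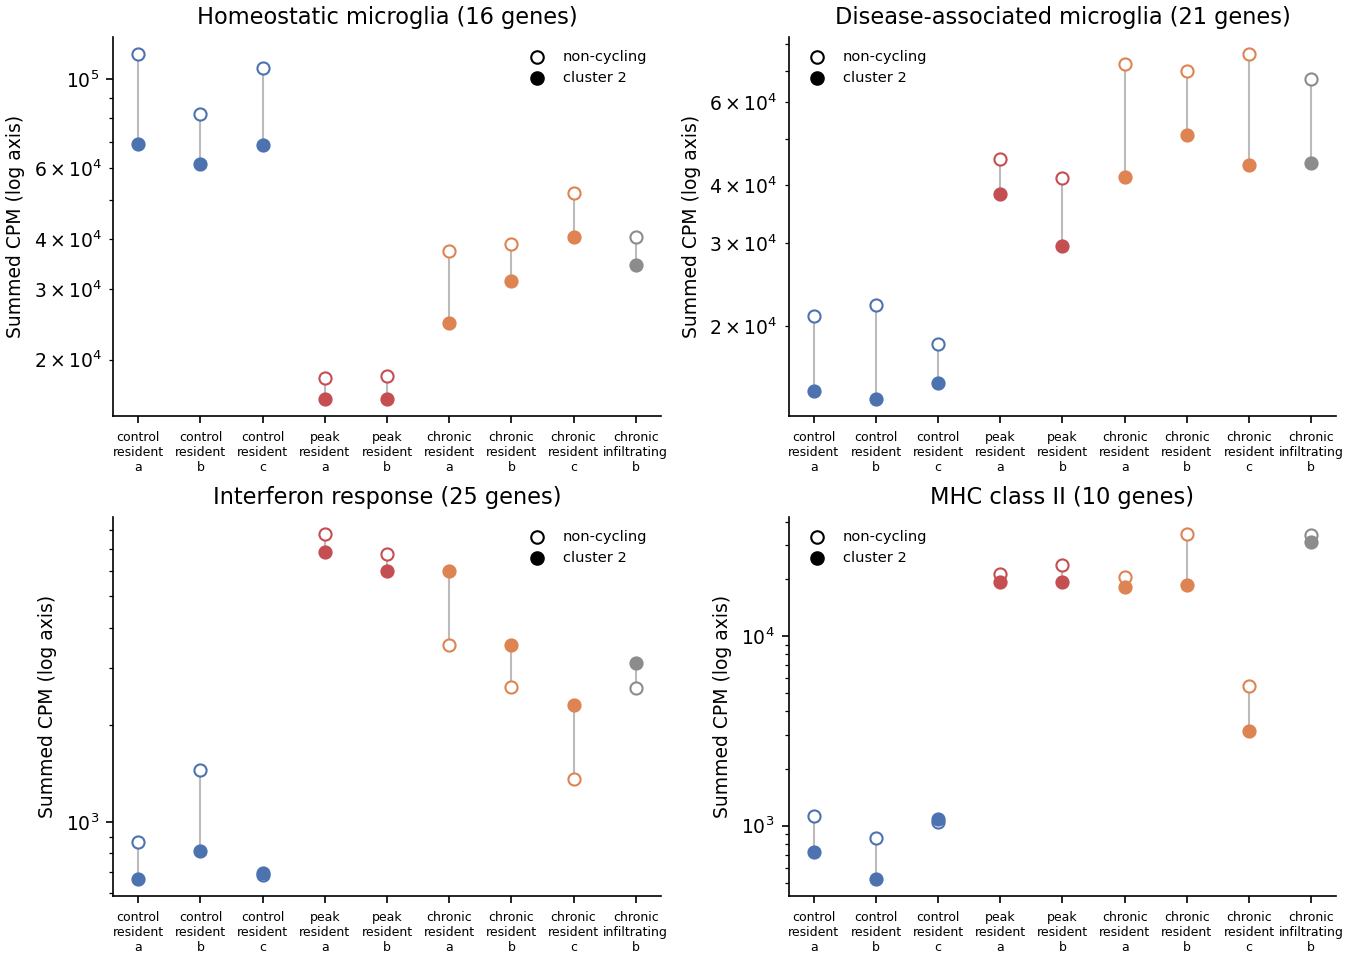
Summed CPM of 4 gene lists (log axes) in cluster 2 (filled) and non-cycling microglia (open) of each library, joined by a line. Homeostatic and disease-associated genes lie lower in cluster 2 in every library, and interferon genes lie lower at peak and higher in the chronic libraries.

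Within cluster 2, Tmem176b and Cxcl13 were higher in chronic than in peak cells, and 7 of 15 MHC class I genes were lower. The edgeR fit held the 5 resident EAE libraries with at least 10 cells. In it 82 of 4707 genes (1.74%) were higher in the chronic phase and 115 (2.44%) lower, 4.19% in all. The counts of higher and lower genes were 244 and 322 without chronic c, which held 12 cells, 37 and 23 without chronic b, 36 and 43 without peak a and 16 and 24 without peak b. Without chronic a, 67 were lower. CPM values within cluster 2 below are scaled over the 8 resident libraries with at least 5 cells and differ slightly from those above.

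Fcrls, an Fc receptor-like gene of microglia, stood at 68.4 and 20.8 CPM in peak a and b, on 20 and 9 UMIs. In chronic a, b and c it stood at 1766, 1845 and 1037 CPM (log2 change 5.22). Fcrls passed the filter on low counts through the chronic libraries, so no test is given for it. In controls it stood at 1242, 950 and 1522 CPM, so only the peak cells were low. Gpr34, a lysophosphatidylserine receptor of microglia, had the same order: 99.1 and 57.7 CPM at peak and 269, 551 and 832 CPM in the chronic phase (2.81 ± 0.45, adjusted p = 0.000657; 0.059 without peak b). Tmem176b, a membrane protein of myeloid cells, stood at 47.9 and 71.5 against 343, 532 and 423 CPM (2.85 ± 0.38, adjusted p = 0.000149). Of 15 homeostatic genes 4 rose and 1 fell from peak to chronic.

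Of 20 disease-associated genes 7 rose and none fell from peak to chronic (median 1.07, −0.02 over all genes). Fabp5, a fatty acid carrier, stood at 3.42 and 25.4 CPM at peak, on 1 and 11 UMIs, and 881, 837 and 328 CPM in the chronic phase (log2 change 5.44). Fabp5 passed the filter on low counts through the chronic libraries, so no test is given for it. Spp1 (osteopontin) stood at 506 and 60.0 against 4673, 2726 and 2238 CPM (3.57 ± 0.59, adjusted p = 0.00097). Igf1, a growth factor of repair-associated microglia, had 0 UMIs in the peak cells and 52 in the chronic cells. Against a floor of 3 UMIs over the peak group this was at least 21.9-fold higher. Chronic a held 38 of the 52 UMIs, and without it the bound was 12.9-fold. Apoe, the main lipoprotein of the brain, did not pass: 12462 and 11777 CPM at peak and 11551, 18180 and 11054 CPM in the chronic phase (0.20 ± 0.36, adjusted p = 0.804).

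Chemokines were among the named genes. Ccl4, which attracts T cells and monocytes, stood at 123 and 39.2 CPM at peak, on 36 and 17 UMIs. In the chronic phase it stood at 1753, 1946 and 2197 CPM (log2 change 4.67). Ccl4 passed the filter on low counts only with the chronic libraries, so no test is given for it. The chronic value rests on few cells: 1 cell held 40.8%, 68.7% and 70.8% of the Ccl4 UMIs of cluster 2 in chronic a, b and c. Cxcl13, the B cell chemokine, stood at 130 and 171 against 1770, 1376 and 641 CPM (3.11 ± 0.42, adjusted p = 0.000149). Its top cell held 28.95% and 60.8% of the Cxcl13 UMIs of cluster 2 in peak a and b. In chronic a, b and c the top cell held 24.75%, 27.65% and 59.6%.

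Of 15 MHC class I genes 7 fell and none rose, of 9 MHC class II genes 3 fell, and of 22 interferon-induced genes 7 fell. H2-Q7, a class I heavy chain gene of a family with near-identical members, stood at 1217 and 1364 CPM at peak and 360, 342 and 136 CPM in the chronic phase (−2.10 ± 0.35, adjusted p = 0.00097). Ciita, the master regulator of class II genes, stood at 164 and 94.6 CPM at peak and 21.7, 19.0 and 0 CPM in the chronic phase (−2.84 ± 0.55, adjusted p = 0.00426; 0.093 without peak a). With library size as the only scaling, 1 interferon-induced gene fell in place of 7. Ciita had 5, 3 and 0 UMIs in chronic a, b and c. It passed the filter on low counts through the peak libraries, so its p-value is a description.

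Ly6a (Sca-1), an interferon-induced surface protein, fell by 2.59 ± 0.38 (adjusted p = 0.000346). Fgl2, a secreted fibrinogen-like protein, stood at 660 and 699 CPM at peak against 174, 82.4 and 81.9 CPM (−2.46 ± 0.36, adjusted p = 0.000346). Jun, an immediate early gene that dissociation of tissue can also induce, stood at 892 and 335 against 69.4, 76.1 and 150 CPM (−2.74 ± 0.43, adjusted p = 0.000628). Of 13 dissociation-induced genes tested 3 fell and none rose. Srsf5, a splicing factor, fell by 2.17 ± 0.36 (edgeR adjusted p = 0.00097). H2ac6, given next, had 2, 3 and 1 UMIs in chronic a, b and c. It passed the filter on low counts through the peak libraries, so its p-value is a description. H2ac6, a replication-dependent histone gene, fell by 4.12 ± 0.72 (adjusted p = 0.00166), a call lost without peak a (−2.29, adjusted p = 0.35).

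Control cluster 2 cells were too few for the minimum of 10 cells per library, so comparisons with them used a minimum of 5 cells, chosen after the cell numbers were seen. Control values rest on 5, 7 and 9 cells with 34572 to 55293 UMIs in all. Against these controls, 368 of 3631 genes (10.1%) were higher at peak and 181 (4.98%) lower. In the chronic phase 500 (13.8%) were higher and 323 (8.90%) lower. Chronic against peak in this fit gave 84 higher (2.31%) and 138 lower (3.8%), 6.11% in all, and 1 higher and 0 lower with pool as a term. With library size as the only scaling, the median of all genes was −0.53 for peak and −0.58 for chronic (−0.00 and −0.04 in the reported fit). The calls were then 222 higher and 573 lower for peak (27.9% higher against 67.0%), and 250 and 792 for chronic (24.0% against 60.8%).

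MHC class II genes were among those with the largest differences from control, with 7 of 8 higher at peak and 6 of 8 in the chronic phase. Of the 10 genes listed, 8 passed the filter on low counts, 3 of them with no UMI in controls, so the count is partly set by the filter and is a description. H2-Ab1 stood at 52.9, 0 and 0 CPM in controls, on 2 UMIs in control a, and at 4318 and 4307 CPM at peak. Its control count is under the floor of 3 UMIs used below, and it passed the filter through the EAE libraries. No fold or test is therefore given for it. H2-Eb1 and H2-Aa had 0 UMIs in all 21 control cells. At peak they were at least 147-fold and 129-fold higher than a floor of 3 UMIs over the control group, and in the chronic phase at least 36.9-fold and 52.6-fold. Cd74, the class II chaperone, stood at 52.9, 51.8 and 116 CPM in controls, on 2, 3 and 6 UMIs. At peak it stood at 9422 and 11782 CPM (log2 change 7.14). In the chronic phase it stood at 17651, 17261 and 1747 CPM (7.35). Cd74 also passed the filter through the EAE libraries, so no test is given for it. No EAE library overlapped the controls, and chronic c was the lowest of them.

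Of 25 interferon-induced genes 19 passed the filter, 6 of them with no UMI in controls, so their counts too are partly set by the filter. The 19 rose at peak (13 in DESeq2), and 14 of them rose in the chronic phase. With pool as a term 12 of the 19 rose at peak and none in the chronic phase, where chronic c alone is set against control c. Of the MHC class I genes 12 of 14 rose at peak and 8 of 14 in the chronic phase. Ly6a had 0 UMIs in the control cells and was at least 40.5-fold higher at peak.

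Of 19 disease-associated genes that passed the filter, 2 of them at 0 in controls, 12 rose and 1 fell at peak, and 16 rose in the chronic phase. Apoe stood at 344, 69.1 and 270 CPM in controls, 12462 and 11777 CPM at peak (5.80 ± 0.44, adjusted p = 2.27e-09) and 11551, 18180 and 11054 CPM in the chronic phase (5.97 ± 0.43, adjusted p = 6.92e-10). Cst7, a cysteine protease inhibitor, stood at 52.9, 17.3 and 57.8 CPM in controls, on 2, 1 and 3 UMIs. In the chronic phase it stood at 1423, 1826 and 560 CPM (log2 change 4.96). Cst7 passed the filter through the EAE libraries, so no test is given for it. Ccl4 and Cxcl13 had 0 UMIs in control cells and were at least 71.6-fold and 45.3-fold higher in the chronic phase.

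Homeostatic genes fell in 7 of 16 cases at peak (median −0.99) and in 7 of 16 in the chronic phase (−0.98), and none rose. Fcrls, given next, had 20 and 9 UMIs in peak a and b. It passed the filter through the other libraries, so its p-value is a description. At peak Fcrls fell by 4.85 ± 0.47 on the log2 scale (adjusted p = 7.42e-08) and P2ry12, the ADP receptor of resting microglia, by 1.78 ± 0.39 (adjusted p = 0.0021; 0.055 without peak b). In the chronic phase Tmem119 fell by 1.45 ± 0.29 (adjusted p = 0.000836) and Cx3cr1, the locus that carries the Cre, by 1.78 ± 0.39 (adjusted p = 0.00203). Hpgd, a prostaglandin-degrading enzyme, was low at both stages: 397, 293 and 328 CPM in controls, 13.7 and 36.9 CPM at peak and 56.4, 44.4 and 54.6 CPM in the chronic phase. Tmem176a, Gpr183 and Ltc4s fell at peak by 3.55, 3.44 and 2.59 on the log2 scale.

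Among genes of energy metabolism, 18 of 35 nuclear-encoded complex I subunits rose in the chronic phase (median 1.08) and 6 of 35 at peak (0.80). Ndufa1 stood at 106, 86.3 and 38.5 CPM in controls and 460, 558 and 409 CPM in the chronic phase (2.67 ± 0.42, adjusted p = 9.34e-05). With library size as the only scaling 4 of 35 rose in the chronic phase. With pool as a term, which sets chronic c alone against control c, 1 rose. Glycolysis genes rose in 9 of 13 cases in the chronic phase and in 5 of 13 at peak, and 8 of 12 mitochondrially encoded genes rose at peak. Between peak and chronic cells, 1 of 35 complex I subunits and none of 14 glycolysis genes passed the test in edgeR.

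Control cycling cells had higher CPM of several genes of division and arrest than EAE cycling cells. These genes define the cluster, so their values are a description. Top2a stood at 1745, 1882 and 1888 CPM in controls, 865 and 711 CPM at peak and 404, 596 and 846 CPM in the chronic phase. Lbr, an inner nuclear membrane receptor, stood at 264, 345 and 231 CPM, 75.2 and 73.8 CPM, and 47.7, 57.1 and 68.2 CPM. Ncapg2, a condensin subunit, stood at 185, 345 and 308 CPM in controls and at 12.7 to 120 CPM in EAE. Control values lay above all EAE values for each of these.

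Cdkn1a was also higher in the control cells. It stood at 476, 621 and 771 CPM in control cluster 2 cells, 243 and 150 CPM at peak and 99.8, 44.4 and 259 CPM in the chronic phase. UMIs of it were found in 5 of 5, 5 of 7 and 8 of 9 control cells, against 8.26%, 17.1% and 6.91% of non-cycling cells of the same libraries, which are shallower. At peak 16 of 35 and 24 of 57 cells had such a UMI, and in the chronic phase 15 of 64, 6 of 41 and 7 of 12. Zfhx3, a transcription factor gene, was also lower in the chronic phase, by 2.42 ± 0.37 on the log2 scale (edgeR adjusted p = 6.88e-05). Csmd3, a membrane protein gene, was lower by 4.17, on 1, 4 and 0 UMIs in chronic a, b and c. Csmd3 passed the filter through the control libraries, so no test is given for it.

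Whether the change from peak to chronic differed between cluster 2 and non-cycling microglia was tested as an interaction, with library as a block. The SE and p-values of this fit rest on a spread shared across genes. Small p-values below therefore do not measure a gene's own spread between libraries, which the ratios of each library show. It passed for 45 of 10106 genes (0.445%), with a more positive change in cluster 2 for 36 (0.356%) and a more negative one for 9 (0.0891%). The counts were 6 and 3 without peak a, 17 and 4 without peak b, and 23 more positive without chronic c. Of 25 interferon-induced genes 5 were among the 36 and none among the 9, and of 36 complex I subunits none passed. Genes of the cell cycle lists that passed, such as Stmn1 (1.03 ± 0.19), Top2a and Mki67, and the histone gene Hist1h2ap (−1.14 ± 0.22), define the cluster and are not read further. The non-cycling cells also differed in make-up between stages. Cluster 3 was 74.3% and 61.4% of them in peak a and b, and 22.6%, 31.3% and 9.34% in chronic a, b and c. Cluster 1 was 1.33% and 0.464% of them, then 20.4%, 21.15% and 62.4%. The part of this make-up in the ratios below was not tested.

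Chemokine genes led the more positive ones. Ccl4 stood in cluster 2 at 90.8 and 30.4 CPM at peak and 1380, 1550 and 1643 CPM in the chronic phase, and in non-cycling cells at 277 and 93.4 CPM and then 1631, 718 and 578 CPM. The log2 ratio of the classes was −1.61 in both peak libraries and −0.24, 1.11 and 1.51 in chronic a, b and c (interaction 2.36 ± 0.24, adjusted p = 1.48e-19). In chronic infiltrating b, which was not in the fit, the ratio was −2.18, below all the resident libraries. For the genes below that library had ratios of 1.14 for Ccl2, 0.59 for Cxcl10, −0.06 for Ch25h, 0.27 for Cd72 and −1.04 for Apoe, so Ccl2 lay within the chronic resident range and Cxcl10, Ch25h and Cd72 lay below it. Single cells carried much of it, as given above.

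Ccl2, a monocyte chemokine, had log2 ratios of 0.00 and −0.11 at peak and 1.70, 1.38 and 0.06 in the chronic phase (interaction 1.49 ± 0.18, adjusted p = 2.68e-13). Cxcl10, an interferon-induced chemokine for T cells, had ratios of 0.44 and 0.33 at peak and 1.70, 1.73 and 1.50 in the chronic phase (1.29 ± 0.19, adjusted p = 8.75e-09), without overlap. The top cell held 36.9%, 50.4% and 78.3% of its cluster 2 UMIs in chronic a, b and c. For Ch25h, given next, the top cell held 18.6%, 55.2% and 46.7% in these libraries, and for Cd72 8.24%, 24.1% and 61.9%. Ch25h, an enzyme that makes a chemoattractant oxysterol, had ratios of −0.26 and 0.27 against 1.46, 1.43 and 2.28 (1.72 ± 0.29, adjusted p = 4.43e-06; 0.51 without peak a). Cd72, an inhibitory receptor, had −0.45 and −0.12 against 0.90, 1.01 and 1.14 (1.24 ± 0.22, adjusted p = 1.86e-05; 0.37 without peak a).

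Apoe had the smallest p of the more negative ones. Cluster 2 held 9192 and 9127 CPM at peak and 9090, 14484 and 8267 CPM in the chronic phase, while non-cycling cells held 10770 and 13752 CPM and then 29788, 28796 and 38122 CPM. The log2 ratio was −0.23 and −0.59 at peak and −1.71, −0.99 and −2.21 in the chronic phase (interaction −1.22 ± 0.14, adjusted p = 5.55e-15), without overlap. Lpar6, a lysophosphatidic acid receptor, had ratios of 0.54 and −0.45 against −1.15, −1.73 and −1.49 (−1.45 ± 0.35, adjusted p = 0.0129). Jund, a subunit of the AP-1 factor, and Crip1, a small LIM domain protein, differed by −1.08 ± 0.27 and −2.22 ± 0.56 (adjusted p = 0.0156 and 0.0181). None of these 3 passed without peak a.

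**Figure D5:**
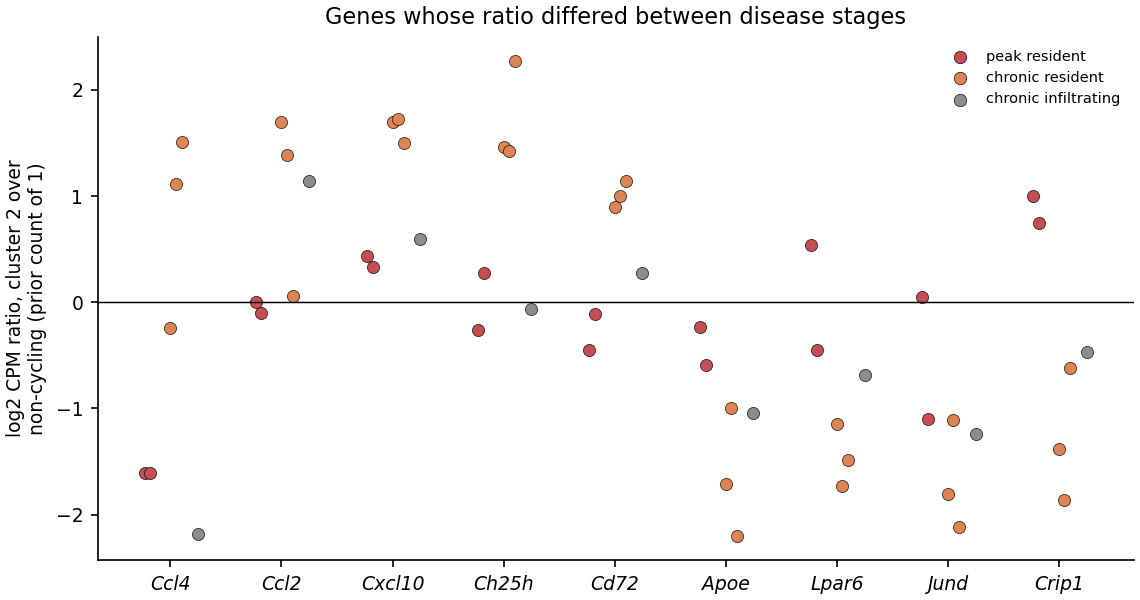
Log2 CPM ratio of cluster 2 over non-cycling microglia in each library (points, coloured by group; prior count of 1) for the named genes outside the cell cycle whose ratio differed between stages. Apoe lies lower and Cxcl10 higher in all 3 chronic resident libraries than in both peak libraries, and the chronic infiltrating library lies below the chronic resident ones for Ccl4, Cxcl10, Ch25h and Cd72.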

How the data were processed

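Single-cell RNA sequencing counted UMIs per gene in each cell. The raw UMI counts, a table of cells with annotation, cluster number and library, the percent of mitochondrial UMIs and the log10 of total UMIs per cell were deposited by the authors. Cell Ranger 3.1.0 and R 4.1.3 are named in the submitters' processing notes. Filters on cells and the clustering method are not given in the sources used here. The deposited percent of mitochondrial UMIs reached 5 at most, and the deposited log10 totals were checked against sums of the counts, from which they differed by rounding only.

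Libraries were placed in groups by the cell table's columns for condition and sort, which name no replicate. Counts were summed over cells of a class per library (at least 10 cells, or 5 for comparisons with controls). Genes passing edgeR's filterByExpr were scaled by TMM within each fit, so a gene's CPM differs between fits, and tested with the edgeR 4.0.16 quasi-likelihood F test (R 4.3.3, limma 3.58.1) with Benjamini-Hochberg adjusted p under 0.05. Resident groups shared a fit. The summed levels of lists are CPM of all UMIs of the class. Cluster 2 against non-cycling cells was described, not tested. Alternatives were DESeq2 1.42.0, library size scaling, no filter, pool as a term, other cell minimums and leaving out each library. On simulated counts, 4-fold changes were recovered for 98% of changed genes in all microglia (10843 genes), 95% within cluster 2 for chronic against peak (4366 genes), 86% for peak against control with 5 cells (2731 genes) and 60% for the interaction (10021 genes).

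Genes named are the markers, the 10 genes highest and lowest by difference from non-cycling cells, up to 6 genes each way with the smallest p and no overlap in each comparison, and members of the gene lists that were abundant or passed the test. Genes of ribosomal proteins, predicted genes and sex-linked markers were not named. The cells and gene lists were chosen with earlier results of these data known.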

Additional observations from a re-analysis of the deposited data

Results flagged for a closer look

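The change from peak to chronic EAE differed between cluster 2 and non-cycling microglia for 45 genes, by the interaction term of the edgeR fit, with library as a block. Apoe (−1.22), Cxcl10 (1.29) and Ccl2 (1.49) kept their call when either peak library was left out. Pool and stage cannot be told apart in this comparison, and its p-values rest on a spread shared across genes. The non-cycling cells also differed in cluster make-up between stages, and the part of this was not tested.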

How the results depend on the processing

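No paired analysis was possible because the cell table gives its libraries no replicate numbers. Counts below are of genes called higher, then lower. With library size as the only scaling, S and G2M genes in all microglia gave 4 lower for peak against control, 12 and 9 for chronic against control, and 0 higher for chronic against peak. Within cluster 2 this scaling gave 63 lower for chronic against peak, 222 and 573 for peak against control, and 250 and 792 for chronic against control. With pool as a term, chronic against control rests on chronic c and control c only. The S and G2M genes then gave 1 and 1 for chronic against control, and 0 and 7 for chronic against peak. Within cluster 2 pool gave 103 lower for peak against control, and 55 and 1 for chronic against control. For chronic against peak with at least 5 cells it gave 1 and 0, in place of 84 and 138. Pool could not be fitted where no control was in the fit (at least 10 cells, and the interaction). Without a filter the S and G2M genes gave 2 lower (peak against control) and 61 lower (chronic against peak), and 2 were lower at peak with all 13 libraries. Unfiltered counts were 210 lower within cluster 2 (chronic against control) and 925 lower against non-cycling cells. DESeq2 gave 53 lower for chronic against peak, 119 for peak against control and 207 for chronic against control. Without cluster 2 cells 21 S and G2M genes were lower in chronic than peak, which is no test of the other cells, since these genes made the cluster. A minimum of 20 cells gave 244 and 322 for chronic against peak, and a minimum of 5 gave an interaction for 19 higher genes. A threshold of 5 UMIs reversed the thinned chronic minus control difference to 1.19.

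Leaving out each library gave these ranges. S and G2M genes: 46 to 81 and 1 to 2 (peak against control), 10 to 54 and 2 to 4 (chronic against control), 0 to 1 and 10 to 52 (chronic against peak). Within cluster 2: 16 to 244 and 23 to 322 (chronic against peak), 252 to 485 and 59 to 231 (peak against control), 294 to 668 and 114 to 427 (chronic against control). The interaction gave 6 to 28 and 3 to 12, and the description 500 to 526 and 322 to 494. For chronic against control in all microglia, pool turned Birc5 to −0.38, Mki67 to −0.58, Stmn1 to −0.73 and Top2a to −0.63. Mki67 was −0.22 with library size scaling, −0.10 without chronic b and −0.0052 without control a, and 0.82 at most, without control b. Within cluster 2, for chronic against control with at least 5 cells, pool turned H2ac6 to 4.26, on 1 UMI in chronic c and 0 in control c. In both comparisons pool sets chronic c alone against control c. Otherwise the cause was not tested for any of these. Of the other values of single genes under an alternative, 1694 kept their direction and call, 190 lost the call, 11 gained it and 1 moved. Control values within cluster 2 rest on 21 cycling cells in 3 libraries.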
